A study of Mus musculus with 16 samples.

Results

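The 10 genes described here encode core parts of basement membranes, the thin matrix sheets that lie under endothelium and epithelium and around muscle fibres, fat cells and Schwann cells. They are 5 chains of collagen IV (Col4a1, Col4a2, Col4a3, Col4a4 and Col4a5), collagens XV and XVIII (Col15a1 and Col18a1), the nidogens (Nid1 and Nid2) and perlecan (Hspg2). They were chosen by name and family, with earlier results of these data known, and all 10 were found among the 25719 genes counted in each library. RNA was sequenced from mouse tail tendon fascicles, collagen strands taken whole from the tail, in 8 wild type libraries and 8 libraries of ScxCre;Vhlf/f mice, called knockout below. In these mice Cre recombinase, driven by control sequence of the tendon gene Scx, acts on a floxed Vhl gene in cells of the Scx lineage, so vessel, nerve and muscle cells outside that lineage should keep it. VHL marks the oxygen-regulated transcription factor subunit HIF1α for breakdown, and the study is about the part of HIF1α in the overload response and disease of tendon and about vessels. Age, sex, any allele carried by the wild type mice, treatment and the number of animals behind a library are not given in the labels used here. P-values therefore measure the spread between these libraries.

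In a basement membrane, collagen IV chains join as trimers and link into a network. The α1 and α2 chains form the network found in most tissues, and the α3, α4 and α5 chains form the one known from kidney glomerulus and some other specialised sites. Nidogens and perlecan tie the collagen IV network to the laminin network, and collagens XV and XVIII sit at the border with the interstitial matrix and carry heparan or chondroitin sulfate chains. In tendon, basement membrane has been described around vessels and nerves and at the surface of the tissue.

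Total counts per library lay between 10488355 and 18753254. Vhl followed the labels, at 14.1 to 25.8 CPM (counts divided by a library size that was scaled with the TMM method) in the wild type and 7.51 to 10.9 CPM in the knockout. The libraries hold other cells beside tenocytes. The counts of markers called below are to be read against 25.6% of all tested genes called higher and 22.7% lower. Of 9 tenocyte markers, all tested, 6 were lower and 1 was higher. Their summed level was 78334 to 182650 CPM in the knockout and 132122 to 382016 CPM in the wild type. The collagen I genes Col1a1 and Col1a2, with wild type means of 153493 and 107971 CPM, gave most of this sum. The sum is therefore a weak measure of tenocyte number. Scx and Thbs4 did not pass the test, and Comp was the marker called higher. Of 16 endothelial markers 12 were tested, 10 were higher and none lower, and their sum was 43.3 to 67.3 CPM in the wild type and 76.1 to 805 CPM in the knockout. Of these markers Tie1, Cldn5, Sox17 and Robo4 were at 3 counts or fewer in every wild type library. Robo4 and Plvap, with wild type means of 0.0595 and 0.499 CPM, passed the expression filter only through their knockout levels. They could be called only higher, and the count of 10 is to be read with this limit. Of 18 skeletal muscle markers 1 was called, higher, and their sum ran from 106 to 11702 CPM in the wild type and from 457 to 26904 CPM in the knockout, with knockout libraries 6, 7 and 8 above all others. Mural cell markers (vessel smooth muscle and pericytes) were called higher for 5 and lower for 1 of 8 tested, with sums of 359 to 476 and 337 to 1565 CPM. Most of the wild type sum came from Cspg4 and Pdgfrb (means of 217 and 150 CPM). Cspg4 was the marker called lower, and Pdgfrb did not pass the test. Schwann cell markers (3 of 6 tested called, all higher) had sums of 29.9 to 45.9 and 31.5 to 92.5 CPM. Adipocyte markers (2 of 3 tested called, both higher) had sums of 3.77 to 190 and 30.2 to 1378 CPM. The called ones were Car3, with means of 40.4 and 453 CPM and so much of these sums, and Fabp4 (0.392 and 14.6 CPM). Plin4 did not pass the test, and Adipoq, Plin1, Cidec, Lep, Retn and Cfd did not pass the expression filter. The sums and the adipocyte score are therefore weak measures of fat cells. Of 10 macrophage markers 3 were called, all higher, a share near that of all genes, with sums of 1221 to 1777 and 1337 to 1978 CPM, and of 4 tested epithelial markers 3 were called, all lower, with sums of 30.0 to 62.7 and 23.0 to 28.3 CPM and Krt1 at 0 counts in every library.

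Of the 10 genes, 4 were higher in the knockout (Col4a1, Col4a2, Col18a1 and Hspg2), 4 were lower (Col4a3, Col4a4, Col4a5 and Col15a1) and Nid1 and Nid2 did not pass the test (edgeR quasi-likelihood F test, Benjamini-Hochberg over all 14803 tested genes, threshold 0.05). Of all tested genes 48.3% passed, 25.6% higher and 22.7% lower, so the number of these genes past the threshold is to be read against a large background. The median log2 difference was 0.12 over the 10 genes and 0.02 over all tested genes. Libraries did not overlap between genotypes for Col18a1, which was higher, and for Col4a3 and Col4a4, which were lower. Over all tested genes 19.4% did not overlap, 10.8% with higher and 8.61% with lower knockout values. Knockout libraries 6, 7 and 8 were chosen after the data were seen for their muscle marker level. Without them 6 of the 10 genes passed, 3 in each direction, and Col4a2 and Col15a1 did not. The same libraries had the highest endothelial scores (mean log2 CPM of the tested markers), 4.96 to 5.58 against at most 4.02 in other knockout libraries. Leaving them out thus removes the highest libraries of both scores.

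**Figure D1:**
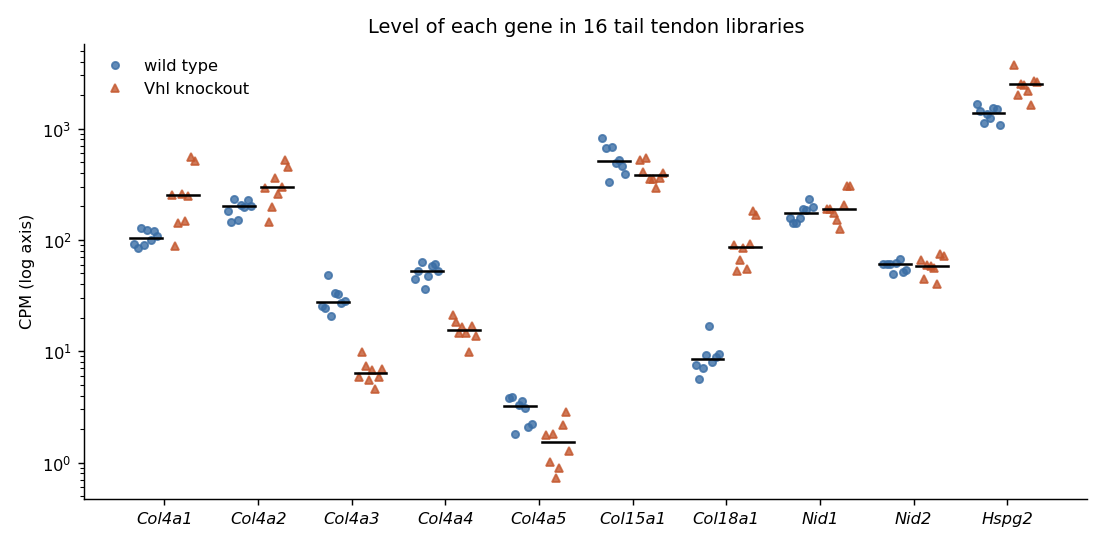
CPM on a log axis of the 10 genes in 8 wild type (circles) and 8 knockout (triangles) libraries, with black lines at the medians. Col18a1 (wild type 5.67 to 16.9, knockout 52.3 to 181 CPM) and Col4a3 and Col4a4 separate the genotypes, while the nidogens overlap.

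The most abundant of these transcripts per length was perlecan in both genotypes. Lengths are union exon lengths of GENCODE M21, which may differ from the annotation behind the counts. In the wild type Hspg2 had 95.4 ± 14.5 CPM per kilobase (SD, n = 8) and Col15a1 86.4 ± 26.1, with overlapping libraries. Col4a2 (29.2 ± 4.97) and Nid1 (25.4 ± 4.56) followed and overlapped each other. Next came Col4a1 (14.2 ± 2.25) and Nid2 (11.2 ± 1.15), then Col4a4 (4.89 ± 0.841), Col4a3 (3.01 ± 0.848) and Col18a1 (1.30 ± 0.484), each overlapping its neighbour within these groups. Col4a5 was lowest, at 0.441 ± 0.122, and did not overlap Col18a1. In the knockout Hspg2 (173 ± 43.3 CPM per kilobase) no longer overlapped Col15a1 (63.7 ± 13.7). Col15a1, Col4a2 (47.5 ± 18.6), Col4a1 (37.0 ± 22.9), Nid1 (29.6 ± 9.48), Col18a1 (14.0 ± 7.04) and Nid2 (11.4 ± 2.35) each overlapped the next. Genes farther apart in this order could still be told apart, since every Col15a1 library was above every library of Nid1, Col18a1 and Nid2, and Col4a2 and Nid1 were each above Nid2 throughout. Below them followed Col4a4 (1.48 ± 0.316) and Col4a3 (0.659 ± 0.157), which overlapped, and Col4a5 (0.233 ± 0.108). Col18a1 thus overlapped Col4a3 in the wild type and Nid2 in the knockout.

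Col4a1 and Col4a2 encode the chains of the widespread collagen IV network. The genes lie head to head on chromosome 8, and their RefSeq starts are so close that the first exons overlap on opposite strands. The shared stretch is shown because both genes start at its ends and their levels moved together. It lies at chr8:11312805-11312826 (GRCm38.p6) and is read here on the Col4a2 strand, in 22 bases that run from the Col4a2 start to the Col4a1 start.
Col4a1/Col4a2: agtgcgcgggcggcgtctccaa
In GENCODE M21, too, their exons share 22 bases, of 7464 for Col4a1 and 6619 for Col4a2.

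Col4a1 (ENSMUSG00000031502) was measured at 85.3 to 129 CPM in the wild type, with a median of 103, and at 88.0 to 555 CPM in the knockout, with a median of 251. Knockout libraries 7 and 8 were highest, at 555 and 511 CPM, libraries 1, 4 and 6 lay between 248 and 260 CPM, and library 2 fell inside the wild type range. The level was above the highest wild type library in 7 of 8 knockout libraries. The difference was 1.38 on the log2 scale (SE 0.322, edgeR adjusted p = 0.00220), a 2.60-fold rise. Without knockout libraries 6, 7 and 8 it was 0.75 and still passed the test. Because whole tissue was sequenced, more cells of a type and more RNA per cell cannot be told apart.

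Col4a2 (ENSMUSG00000031503) ran from 145 to 234 CPM in the wild type (median 200.4) and from 144 to 517 CPM in the knockout (median 296). Libraries 7 and 8 were again highest and library 2 was the lowest of all 16. The difference was 0.70 (SE 0.210, edgeR adjusted p = 0.0107), and 6 of 8 knockout libraries were above the wild type range. It missed the threshold without libraries 6, 7 and 8, at 0.36 (adjusted p = 0.117 with edgeR), and when the muscle marker score entered as a covariate, at 0.45 (adjusted p = 0.105).

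The levels of both genes varied together within each genotype. The Pearson correlation of their log2 CPM was 0.907 in the wild type (exact permutation p = 9.18e-04, adjusted over 10 relations 0.00306, n = 8) and 0.974 in the knockout (exact permutation p = 4.96e-05, adjusted 4.96e-04, n = 8). Spearman's rho was 0.976 in both (exact permutation p = 3.97e-04, adjusted 0.00198, n = 8). Without the 2 libraries farthest from the median the correlations were 0.893 and 0.936. The balance of the pair nevertheless shifted. The log2 ratio of Col4a1 to Col4a2 counts, which does not depend on how libraries are scaled, was -0.86 ± 0.108 in wild type libraries and -0.33 ± 0.354 in those of the knockout (SD, n = 8). The ratio was higher in the knockout by 0.54 (two-sided exact permutation test over 12870 assignments, p = 9.32e-04, adjusted over 4 ratios 0.00124), and 7 of 8 knockout libraries were above the wild type range. In knockout libraries 7 and 8 it exceeded 0, at 0.10 and 0.19.

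Col4a1 varied with the marker levels of other cell types. The endothelial score, the mean log2 CPM of the 12 tested markers, was 0.83 to 1.66 in the wild type and 2.07 to 5.58 in the knockout. Within the knockout Col4a1 correlated with it at 0.946 (Pearson, exact permutation p = 3.22e-04, adjusted over 10 relations 0.00161, n = 8; Spearman's rho 0.929, p = 0.00223, adjusted 0.00744), and at 0.880 without the 2 libraries farthest from the median. Within the wild type the correlation was 0.690 (exact permutation p = 0.0372, adjusted 0.0745, n = 8; rho 0.619, p = 0.115, adjusted 0.230), and 0.557 without 2 libraries. Knockout library 2, with the lowest endothelial score of its group, also had the lowest Col4a1 and Col4a2. With the endothelial score as a covariate the Col4a1 difference turned to -0.72 (SE 0.214, edgeR adjusted p = 0.0163) and that of Col4a2 to -0.57 (SE 0.215, adjusted p = 0.0559). The score does not overlap between the genotypes, so this fit compares them outside the range they share, and the part of endothelial cells in the rise was not tested. Other scores moved with Col4a1 too. Knockout libraries 6, 7 and 8 had the highest endothelial scores and also the highest muscle, mural and adipocyte scores. The correlation of Col4a1 with the muscle score was 0.813 in the knockout (exact permutation p = 0.0141, adjusted 0.0352, n = 8; rho 0.738, p = 0.0458, adjusted 0.115) and 0.571 in the wild type (exact permutation p = 0.133, adjusted 0.221, n = 8; rho 0.476, p = 0.243, adjusted 0.347). Without the 2 farthest libraries it was 0.544 and 0.226, so the knockout value rests on few libraries. Within the knockout the muscle scores of libraries 6, 7 and 8 (8.62 to 9.13) lie apart from the others (3.36 to 6.20). Between the genotypes the muscle scores overlap (0.97 to 8.31 in the wild type). The part of these cell types was not tested either.

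**Figure D2:**
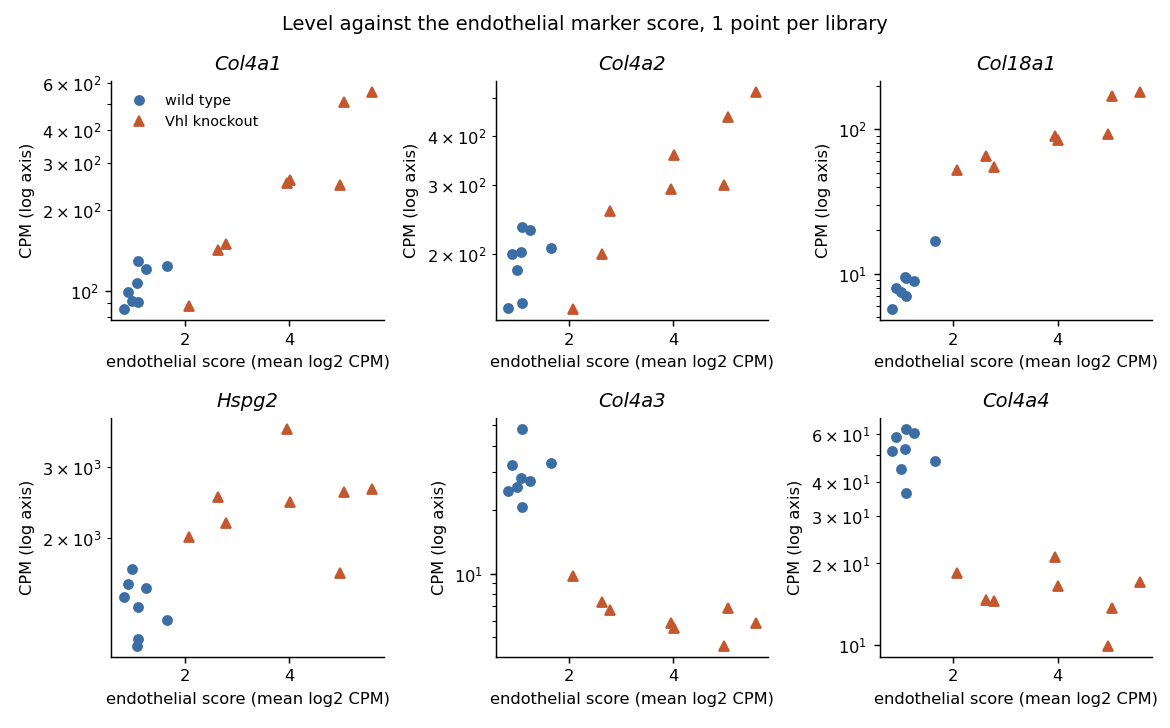
CPM (log axis) of 6 genes against the endothelial score (mean log2 CPM of 12 markers), 1 point per library, wild type as circles and knockout as triangles. Col4a1 and Col4a2 climb with the score within the knockout, from 88.0 to 555 CPM for Col4a1, while Col4a3 and Col4a4 stay low in every knockout library.

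Col4a3 and Col4a4 encode chains of the second collagen IV network and, like the pair above, lie head to head, on chromosome 1. The stretch between their starts is shown because both genes fell to a similar degree. It spans chr1:82586850-82586920 (GRCm38.p6) and is read on the Col4a4 strand, with the RefSeq start of Col4a4 beyond its last base and the GENCODE M21 start of Col4a3 before its first.
Col4a3/Col4a4: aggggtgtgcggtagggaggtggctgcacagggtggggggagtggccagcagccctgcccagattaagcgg
At 71 bases it holds neither ACGTG nor GCGTG on either strand, the core letters of the hypoxia response element to which HIF binds.

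Col4a3 (ENSMUSG00000079465) was measured at 20.6 to 48.3 CPM in the wild type (median 27.7) and at 4.56 to 9.78 CPM in the knockout (median 6.32). Wild type library 3 was highest, and the highest knockout library, number 2, stayed below every wild type library. The level fell by 2.20 on the log2 scale (SE 0.169, edgeR adjusted p = 3.74e-09), to 21.8% of the wild type. Col4a4 (ENSMUSG00000067158) ran from 36.3 to 62.8 CPM in the wild type (median 52.4) and from 9.94 to 21.1 CPM in the knockout (median 15.6). The groups were again apart, and the level fell by 1.72 (SE 0.135, edgeR adjusted p = 3.73e-09), to 30.3% of the wild type. With the endothelial score as a covariate both decreases stayed past the threshold, at -1.77 (SE 0.304, adjusted p = 2.11e-04) for Col4a3 and -1.55 (SE 0.264, adjusted p = 2.01e-04) for Col4a4. That score does not overlap between the genotypes, so this fit cannot separate genotype from endothelial content. Both decreases also held without knockout libraries 6, 7 and 8, at -2.10 and -1.61. Epithelial markers moved with them. Dsp, a desmosome protein, fell from 24.2 ± 8.62 to 12.0 ± 1.93 CPM and Perp, another desmosome-linked protein, from 4.399 ± 1.85 to 1.62 ± 0.393 CPM (SD, n = 8), both without overlap, while Trp63 did not pass the test and Krt5 and Krt14 were at 3 counts or fewer in every library. Wild type library 3, highest for Col4a3 and Col4a4, also had the highest epithelial score, 3.27. Other libraries did not all follow. Wild type library 5, at a score of 3.18, had Col4a3 above the wild type median (33.3 CPM) but Col4a4 below it (47.7 CPM). Knockout library 1 had the lowest score, 1.99, and the highest Col4a4 of the knockout. The part of epithelial cells in both decreases was not tested.

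Col4a5 (ENSMUSG00000031274), whose chain joins the α3 and α4 chains, is on chromosome X and was the rarest of the 10, with 9 to 59 counts per library. Its level was 1.79 to 3.86 CPM in the wild type (median 3.20) and 0.723 to 2.86 CPM in the knockout (median 1.53). Libraries overlapped, with 6 of 8 knockout libraries below the wild type range. The level fell by 0.89 (SE 0.257, edgeR adjusted p = 0.00729). Its partner Col4a6, which is no member, had 0 to 9 counts per library and was not tested. The log2 ratio of Col4a5 to Col4a1 counts was -5.17 ± 0.608 in wild type libraries and -7.32 ± 0.861 in those of the knockout (SD, n = 8), a difference of -2.14 with no overlap (exact permutation test with p = 0.000155, which is the lowest it can give, adjusted over 4 ratios 3.11e-04).

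As a share of all collagen IV transcripts per length, Col4a3 and Col4a4 together made up 15.3% ± 1.63 in wild type libraries and 3.13% ± 2.00 in those of the knockout (SD, n = 8), with ranges of 13.4% to 17.8% and 1.41% to 7.45%. The share of Col4a1 was 27.5% ± 1.52 and 40.1% ± 6.37, and that of Col4a2 was 56.3% ± 1.75 and 56.4% ± 4.97. Col4a5 and Col4a6 made up 0.961% ± 0.341 and 0.338% ± 0.158. The collagen IV transcripts of the knockout were thus almost entirely Col4a1 and Col4a2. These shares are descriptions of genes already tested above.

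**Figure D3:**
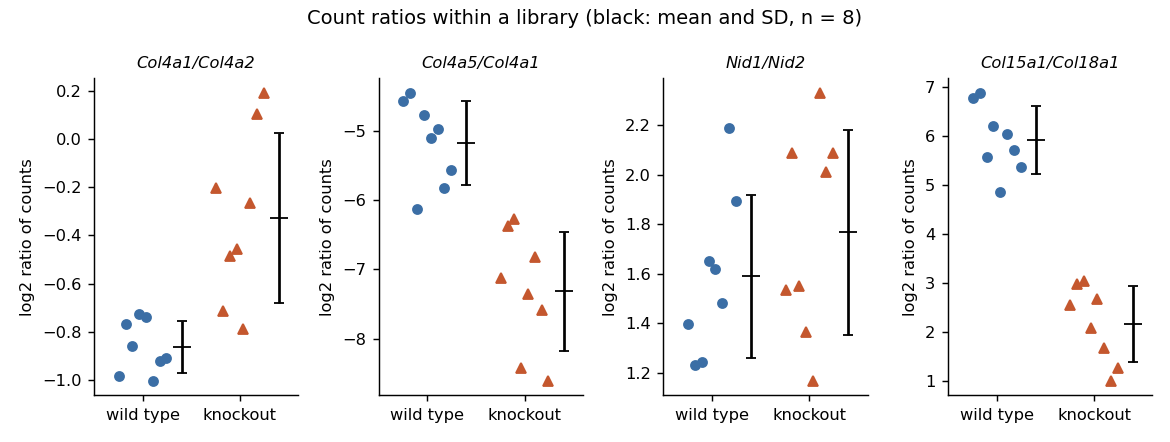
Log2 ratio of counts of 2 genes within each library, wild type as circles and knockout as triangles, with the mean and SD in black (n = 8). Col4a5/Col4a1 and Col15a1/Col18a1 separate the genotypes, Col4a1/Col4a2 is higher in the knockout (-0.33 against -0.86), and Nid1/Nid2 overlaps.

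Collagens XV and XVIII are related proteins whose C-terminal parts can be cut off, and that of collagen XVIII is endostatin, known as an inhibitor of vessel growth. Col18a1 (ENSMUSG00000001435, chromosome 10) showed the largest change of the 10 genes. It was measured at 5.67 to 16.9 CPM in the wild type (median 8.43), where library 5 was highest, and at 52.3 to 181 CPM in the knockout (median 87.1), where libraries 7 and 8 were highest and 2 and 5 lowest. Every knockout library exceeded every wild type library. The difference was 3.44 on the log2 scale (SE 0.316, edgeR adjusted p = 2.10e-07), a 10.9-fold rise. It was 2.93 both without knockout libraries 6, 7 and 8 and when the muscle score entered the fit. With the endothelial score as a covariate it was 1.87 (SE 0.235, adjusted p = 8.00e-06), so it remained past the threshold in that fit, unlike the rise of Col4a1. The score does not overlap between the genotypes, so that fit cannot separate genotype from endothelial content.

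Col15a1 (ENSMUSG00000028339, chromosome 4) had 334 to 824 CPM in the wild type (median 509) and 293 to 539 CPM in the knockout (median 383). The groups overlapped widely, and only knockout library 6 was below the wild type range. The level fell by 0.44 (SE 0.172, edgeR adjusted p = 0.0426). This call was weak. It was lost in edgeR when wild type library 1, 2, 4 or 6 or knockout library 2, 4, 5, 6, 7 or 8 was left out (differences between -0.33 and -0.45), without libraries 6, 7 and 8 together (-0.34), and when libraries were scaled to total counts (-0.12). The log2 ratio of Col15a1 to Col18a1 counts was 5.92 ± 0.691 in wild type libraries and 2.15 ± 0.779 in those of the knockout (SD, n = 8), without overlap (difference -3.77, exact permutation test, p = 0.000155, adjusted over 4 ratios 3.11e-04). On the geometric mean, 60.5 Col15a1 counts stood against 1 Col18a1 count in wild type libraries and 4.45 in those of the knockout. The correlation of Col15a1 with Col18a1 within a genotype did not pass the test (Pearson -0.188 and -0.158, exact permutation p = 0.683 and 0.713, adjusted 0.713 for both, n = 8; Spearman -0.167 and -0.190, p = 0.703 and 0.665, adjusted 0.703 for both), also without the 2 farthest libraries (0.0717 and -0.118).

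The nidogens, which link laminin to collagen IV, showed no difference past the threshold. Nid1 (ENSMUSG00000005397, chromosome 13) was measured at 143 to 234 CPM in the wild type (median 173) and at 126 to 306 CPM in the knockout (median 190), with knockout libraries 7 and 8 above the wild type range and library 5 below it. The log2 difference was 0.22 (SE 0.168, edgeR adjusted p = 0.294), and -0.09 without libraries 6, 7 and 8. Nid2 (ENSMUSG00000021806, chromosome 14) had 49.6 to 67.0 CPM in the wild type (median 60.3) and 40.6 to 74.9 CPM in the knockout (median 58.7), a difference of 0.02 (SE 0.111, edgeR adjusted p = 0.888). Knockout libraries 7 and 8 were above the wild type range of Nid2 and 2 and 6 below it. The Nid1 to Nid2 ratio differed by 0.18 on the log2 scale, within its spread (exact permutation test, p = 0.349, adjusted 0.349, n = 8). The correlation of Nid1 with Nid2 did not pass the test within the wild type (Pearson -0.285, exact permutation p = 0.486, adjusted 0.607, n = 8; rho -0.190, p = 0.665, adjusted 0.703) or the knockout (0.447, exact permutation p = 0.266, adjusted 0.380, n = 8; rho 0.476, p = 0.243, adjusted 0.347). Without the 2 farthest libraries these were -0.163 and 0.970, so the knockout value rests on which libraries enter. Exons of Nid2 share 437 of their 5174 bases with Rtraf on the other strand, so the Nid2 counts are uncertain. Genes annotated on the opposite strand also overlap exons of Col4a2, Col4a3, Col15a1 and Nid1, and whether strand was used in counting is not given in the sources used here.

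Perlecan, the large heparan sulfate proteoglycan of basement membranes, is encoded by Hspg2 (ENSMUSG00000028763, chromosome 4). It was measured at 1075 to 1672 CPM in the wild type (median 1386) and at 1637 to 3748 CPM in the knockout (median 2492). Knockout library 1 was highest and library 6 lowest, and only library 6 fell within the wild type range. The difference was 0.86 (SE 0.140, edgeR adjusted p = 4.25e-05), a 1.81-fold rise. Its order over the knockout libraries was not that of Col4a1 or Col18a1, since libraries 7 and 8 (2654 and 2608 CPM) stood close to library 3 (2524 CPM). The difference was 0.92 without libraries 6, 7 and 8, 0.88 with the muscle score and 0.78 with the endothelial score as a covariate (SE 0.266, adjusted p = 0.0349), and so moved little between these fits. The limit of the endothelial fit, a score without overlap between the genotypes, holds here too.

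**Figure D4:**
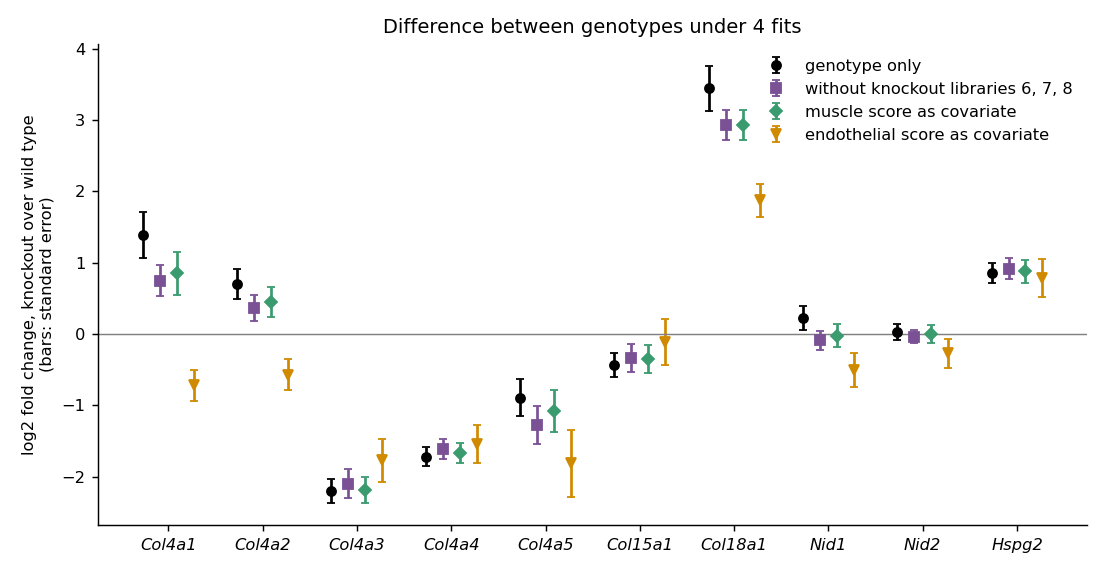
Log2 fold change with its standard error for each gene with genotype alone, without knockout libraries 6, 7 and 8, and with the muscle or the endothelial score as a covariate. Col4a1 and Col4a2 turn from 1.38 and 0.70 to -0.72 and -0.57 with the endothelial score, and Nid1 and Nid2 also change sign. Col4a3, Col4a4, Col4a5, Col15a1, Col18a1 and Hspg2 keep their sign in all 4 fits.

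The promoters of Hspg2 and Col18a1 are shown because these genes rose in all 4 fits. Each run is the 250 bases before a RefSeq start (GRCm38.p6) on the strand of the gene, with ACGTG or GCGTG, read on either strand, in capitals. The Hspg2 run is chr4:137468553-137468802 on the plus strand. Col18a1 has 2 starts in the table, and its runs are chr10:77166531-77166780 and chr10:77113706-77113955 on the minus strand. Which start was used in these libraries was not analysed here.
Hspg2: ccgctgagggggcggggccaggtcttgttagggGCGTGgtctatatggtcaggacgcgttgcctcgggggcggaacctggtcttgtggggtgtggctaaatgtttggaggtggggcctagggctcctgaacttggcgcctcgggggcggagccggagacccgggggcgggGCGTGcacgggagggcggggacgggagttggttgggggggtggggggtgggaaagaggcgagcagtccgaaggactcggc
Col18a1, first start: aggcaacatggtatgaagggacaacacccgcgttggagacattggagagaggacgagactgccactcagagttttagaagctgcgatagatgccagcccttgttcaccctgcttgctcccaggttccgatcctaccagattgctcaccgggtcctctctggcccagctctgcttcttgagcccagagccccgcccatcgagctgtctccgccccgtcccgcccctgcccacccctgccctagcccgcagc
Col18a1, second start: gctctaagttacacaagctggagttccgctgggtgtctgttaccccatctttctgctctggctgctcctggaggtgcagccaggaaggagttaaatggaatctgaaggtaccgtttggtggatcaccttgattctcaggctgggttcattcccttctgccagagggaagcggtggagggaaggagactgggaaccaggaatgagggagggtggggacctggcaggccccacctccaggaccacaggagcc
The Hspg2 run held GCGTG 2 times, from 217 and from 80 bases before the start, and neither Col18a1 run held the core. Windows were found for 8 of the 10 genes, not for Col4a3 and Nid2. The core was present in those of Hspg2, Col4a1 (GCGTG from 171 bases before the start), Col4a2 (GCGTG from 105) and Col4a4 (ACGTG from 84), and not in those of Col4a5, Col15a1, Col18a1 and Nid1. It was present in 38.6% of all 32851 promoter windows of the same length, so 4 of 9 windows is near that share, and it was found both for genes that rose and for Col4a4, which fell.

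Other parts of the basement membrane pathway also moved in both directions. Of 28 further components (laminin chains, agrin, fibulins, SMOC and FRAS proteins and others) 26 were tested, 11 were higher, 9 were lower and 6 did not pass, with a median log2 difference of 0.03. These counts, and those of the lists below, stand beside 48.3% of all tested genes called, 25.6% higher and 22.7% lower, and a median of 0.02. Lamb3, a chain of an epithelial laminin, rose from 2.73 ± 1.13 to 15.1 ± 4.52 CPM (SD, n = 8) and Frem2, a component of epithelial basement membranes, from 0.627 ± 0.643 to 4.39 ± 4.56 CPM, the latter with overlap. Smoc1, a SPARC-related calcium-binding protein, fell from 7.90 ± 2.76 to 1.12 ± 0.753 CPM, and Fras1, which acts with FREM proteins, from 33.9 ± 8.16 to 7.60 ± 3.06 CPM. Frem2 did not keep its call without knockout libraries 6, 7 and 8 (1.45, edgeR adjusted p = 0.0575). At 0.627 CPM in the wild type Frem2 was near the floor of the filter and could hardly have been called lower.

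Of 11 receptors 3 were higher, 4 were lower and 4 did not pass (median -0.19), and the share that was higher is near the 25.6% of all tested genes. Itga7, the laminin-binding integrin chain of muscle, rose from 13.9 ± 5.37 to 45.6 ± 20.02 CPM and Itga1, a chain of a collagen IV-binding integrin, from 108 ± 13.5 to 138 ± 19.0 CPM (SD, n = 8). Itgb4, the laminin-binding chain of hemidesmosomes, fell from 171 ± 61.4 to 67.3 ± 13.8 CPM without overlap, and Itga2, a collagen-binding chain, from 126 ± 29.4 to 70.7 ± 15.0 CPM.

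Of 15 enzymes and chaperones that build collagen IV and other collagens 8 were higher, 3 were lower and 4 did not pass (median 0.33), against 25.6% higher and 22.7% lower of all tested genes. P4ha2, a catalytic subunit of prolyl 4-hydroxylase, and Plod2, a lysyl hydroxylase, were the most raised, by 4.29 and 3.57 on the log2 scale (SE 0.148 and 0.155). P3h2, a prolyl 3-hydroxylase known to act on collagen IV, fell by 1.11 (SE 0.143) from 266 ± 39.8 to 123 ± 32.4 CPM (SD, n = 8), and P4ha1 fell by 0.80. Of 10 proteases and heparanase 9 were tested, 4 were higher, 2 were lower and 3 did not pass (median 0.49), against the same shares. Hpse, the enzyme that cuts heparan sulfate chains such as those on perlecan, rose from 1.21 ± 0.418 to 7.56 ± 1.30 CPM and Mmp3, a protease known to cleave nidogen and other matrix proteins, from 5.98 ± 1.44 to 15.2 ± 5.18 CPM, both without overlap. Ctsl, a lysosomal cathepsin, fell from 524 ± 95.2 to 176 ± 26.2 CPM, and Bmp1, a procollagen proteinase, from 408 ± 66.2 to 275 ± 33.9 CPM. With the endothelial score as a covariate Frem2, Itga1, Itga7, Itga2, P3h2, P4ha1 and Bmp1 did not pass the threshold.

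**Figure D5:**
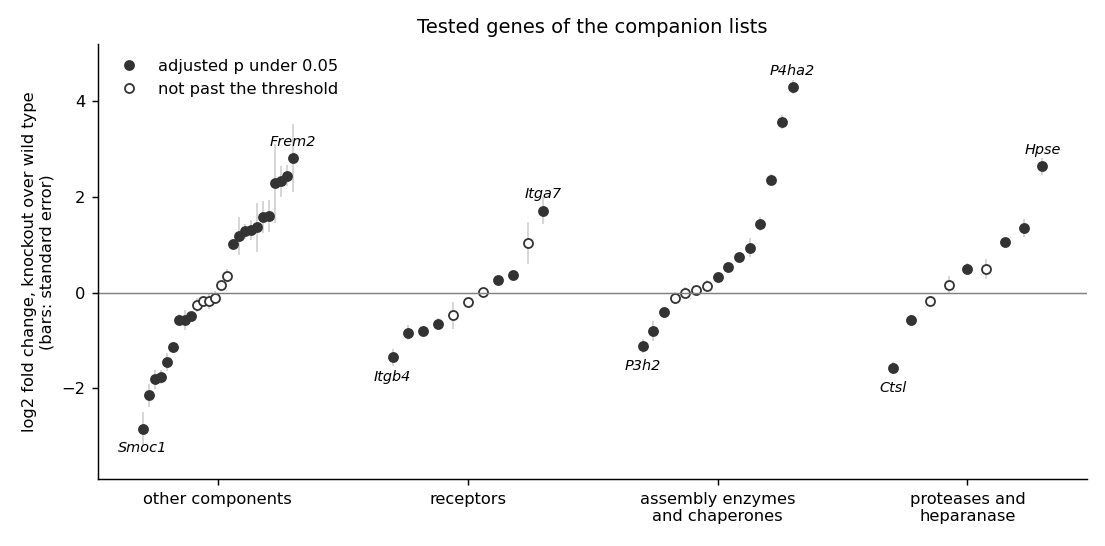
Log2 fold change with its standard error of every tested gene in the 4 lists, in rising order within a list, filled where the adjusted p was under 0.05. Each list holds genes in both directions, from Smoc1 to Frem2 among the other components and from P3h2 to P4ha2 among the assembly enzymes.

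The genes most alike in their variation between libraries differed from member to member. Likeness was the Pearson correlation of log2 CPM over 16 libraries after each genotype's mean was removed, the best 3 of all tested genes are named, and no test was made. For Col4a1 they were Kdr, the main VEGF receptor of endothelium (0.964), Trp53i11 (0.953) and N4bp3 (0.948), and for Col4a2 Ece1 (0.953), Arap2 (0.930) and Iqck (0.926). For Col18a1 they were Prnd (0.911), Egflam (0.906) and Mcam (0.895). For Hspg2 they included Lrp1 (0.926) and Ltbp3 (0.921). Of all genes named in this paragraph only Kdr is on the endothelial list. That list holds only 16 markers, so absence from it does not show that a gene is not expressed in vessels. Col4a3 was followed most closely by Kank4 (0.900), Tjp1 (0.896) and Erbb2 (0.894), and Col4a4 by Cdc14b (0.892), Gm7694 (0.857) and Boc (0.850). Col4a5 was nearest to Fras1 (0.920), Setd7 (0.856) and Rprd1b (0.850), and Col15a1 to Ssc5d (0.937), Myo7a (0.933) and Slc29a3 (0.930). Nid1 was nearest to Pitpnc1 (0.912), Pdk2 (0.911) and Ptprd (0.894), and Nid2 to Fbrs (0.845), Rnf44 (0.842) and Adgra2 (0.826).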

How the data were processed

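Per the file headers, each of 16 deposited files holds 1 column of matched counts, and the values are whole-number counts per Ensembl gene with a different total in each library. Kallisto, featureCounts and the build GRCm39 are named in the submitters' processing notes, without role or version. The annotation and the use of strand are not given in the sources used here. Of 25719 identifiers 25614 matched a symbol. Groups were taken from the sample titles.

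Genes were filtered with the default expression filter of edgeR 4.0.16 (R 4.3.3), scaled with TMM and tested with its robust quasi-likelihood F test with genotype as the only term. Adjustment (Benjamini-Hochberg) was over the 14803 tested genes, which held at least 99.7% of the counts of a library. The threshold was 0.05. CPM use TMM-scaled library sizes, and log2 CPM a prior count of 2. Count ratios, with 0.5 added to each count, were compared by exact permutation, two-sided. On simulated counts for this comparison (14429 genes tested, 197 changed) 194 changed genes were called, and 7.18% of calls were false. Every simulated gene had the same biological coefficient of variation, 0.208, and far fewer genes changed than the 7151 called in the data. These rates therefore do not give the power or the error rate for the real libraries.

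The 10 genes, the companion and marker lists and the tests were chosen with earlier results of these data known. All 10 genes are named. From each companion list the 2 called genes with the largest increase and decrease and a mean log2 CPM of at least 1 are named. For each of the 10 genes the 3 genes most alike are named, except 1 that is not reported here. Lengths and chromosomes come from GENCODE M21 (GRCm38), and promoter sequences from RefSeq (GRCm38.p6). Alternatives were other scalings (DESeq2 size factors, total counts, TMM without the 20 most abundant genes), no filter or a minimum mean count of 10, DESeq2 1.42.0 (Wald test), voom with sample weights in limma 3.58.1, the replicate number as a block, muscle, endothelial and Y-linked levels as covariates, and each library left out. No pair of libraries within a genotype repeated the same counts, since the most similar pair differed with a chi-square of 6.85 per degree of freedom.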

Additional observations from a re-analysis of the deposited data

Results flagged for a closer look

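In 44 checks of 8 libraries each (the 10 genes, the 4 ratios and the 8 marker scores in each genotype) 1 library stood apart from its group, where chance gives about 1 in 20 checks, or 2.2. Col18a1 was highest in wild type library 5, at a log2 CPM of 4.09, and the gap to the next library was 0.533 of the whole range. The same library had the highest summed muscle marker level of the wild type, 11702 CPM, and the highest endothelial score, 1.66. The part of these in the Col18a1 value was not tested. Without this library the Col18a1 difference between genotypes was 3.63.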

How the results depend on the processing

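The decreases of Col4a3, Col4a4 and Col4a5 and the increases of Col18a1 and Hspg2 kept their direction and stayed past the threshold under every alternative run. Col4a1 did so under all but the endothelial score as a covariate (-0.72), where Col4a2 was -0.57, Nid1 -0.50, Nid2 -0.27, Col15a1 -0.12, Frem2 -0.40 and P4ha1 0.054. That fit called 4000 genes against 7151, and the score does not overlap between genotypes. With the muscle score as a covariate Col4a2 (0.45) and Col15a1 (-0.35) missed the threshold, and Nid1 (-0.024) and Nid2 (-0.0030) changed sign. Without knockout libraries 6, 7 and 8 the values were 0.36 for Col4a2, -0.34 for Col15a1, -0.092 for Nid1, -0.037 for Nid2 and -0.047 for the Nid1 to Nid2 ratio. With total counts the median of all genes moved from 0.02 to 0.32 and 85.4% of calls were higher, against 53.0%. On that scale Nid1 (0.53) and Nid2 (0.32) passed the threshold, each moved by about that shift, and Col15a1 (-0.12) did not. Leaving out 1 library at a time gave -0.52 to -0.33 for Col15a1 and -0.036 to 0.085 for Nid2, and 7 or 8 of the 10 genes past the threshold. The cause of these changes was not tested.

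The labels do not say whether the replicate numbers pair the libraries. Same-numbered libraries deviated together (correlation over 0.1) in 3 of 8 pairs, with correlations from -0.397 to 0.394. Of 8 wild type libraries 1 correlated best with its own number. These values show no consistent pairing but cannot exclude one, since every source of spread between libraries enters them. With the replicate number as a block, 7010 genes and 7 of the 10 genes were called, and Col15a1 was -0.41 (edgeR adjusted p = 0.0571). Depth limits Col4a5, with as few as 9 counts in a library, and Col4a6, which was not tested.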
